A study of Mus musculus with 22 samples.

Results

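The genes described here encode the vesicle SNAREs and secretory carrier membrane proteins of astrocyte release, namely *Vamp2*, *Vamp3*, *Vamp4*, *Vamp7*, *Snap23*, *Snap29*, *Scamp1*, *Scamp2*, *Scamp3* and *Scamp5*. They were chosen by symbol from a table of 23453 genes, all 10 were found in it, and all 10 passed the filter of a read in at least 5 cells, as did 12719 genes in total. The table holds the RNA-seq counts of 22 single astrocytes, each collected with a micropipette after its calcium response to acute EtOH had been imaged. Of these, 6 were S-type astrocytes with a sustained response, 6 were T-type with a transient response, 5 were M-type with a mixed response, and 5 were NR cells without a response. All cells, NR included, were cultured from the cortex of C57BL/6 pups at P0 to P1, loaded with the calcium dye Fluo-4 AM and exposed to EtOH. The NR cells were therefore exposed cells that did not respond, and no unexposed cell was analysed here. The cultures had been shaken and treated with cytosine arabinoside against other cell types, and serum had been withdrawn the day before. The labels give neither the animal or culture of a cell nor its time of collection after EtOH, which leaves 1 sample for each response type and no ground for a p-value.

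SNARE proteins drive the fusion of a vesicle with its target membrane. A VAMP protein on the vesicle pairs with a syntaxin and a SNAP protein on the target, and the bundle they form pulls both membranes together. VAMP2 is the classical synaptic vesicle SNARE of neurons, and VAMP3, or cellubrevin, is its widely expressed relative on recycling endosomes. VAMP4 acts between endosomes and the trans-Golgi network, and VAMP7 is a SNARE of late endosomes and secretory lysosomes that tetanus toxin does not cleave. SNAP23 is the widely expressed counterpart of the neuronal SNAP25, and SNAP29 is a soluble relative that takes part in endosomal and autophagosomal fusion. SCAMPs are membrane-spanning carrier proteins found in the recycling and secretory membranes of most cells, and SCAMP5 is the family member best known from brain. In astrocytes, calcium-dependent exocytosis of transmitters, peptides and ATP has been tied to VAMP2, VAMP3 and VAMP7.

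A cell had between 2937786 and 22131076 counted reads. The level of a gene in a cell is its normalized count, the read count divided by the size factor of that cell, and the level of a type is the mean over its cells. Some T-type cells stood apart as libraries. T-type size factors ran from 0.183 to 1.56 against 0.923 to 2.31 in all others, and T-type genes with a read from 6319 to 10614 against 9272 to 13070. The T-type cell J166_25, with 1.56 and 10614, lay within both ranges of the other types. The T-type cells J162_16 and J163_18 had the smallest size factors. For the 10 genes, each T-type ratio past 2-fold is also given without 1 or both of these cells. The astrocyte markers were read in all types, 12 of 12 in each, and their summed level, in CPM (the read count scaled to the same library total in every cell), was 8265 to 20583 in T-type, 5035 to 20369.9 in NR, 4811 to 16611 in S-type and 11493 to 19580.2 in M-type cells. Neuron markers summed to 38.1 to 431 CPM in T-type, 94.8 to 656 in NR, 58.3 to 2076 in S-type and 100.4 to 539 in M-type cells, with a read for 10, 11, 9 and 7 of 12 markers, and *Slc17a7* was at 0 in each type. *Snap25* and *Syt1* belong to that list as well as to the release machinery. Microglia markers reached at most 84.0 CPM in T-type, 150.6 in NR, 1.05 in S-type and 2.08 in M-type cells. Their part in the values below was not tested. The markers *Sox10* of the oligodendrocyte lineage, *Cldn5* and *Cdh5* of endothelium and *Rgs5* of mural cells were at 0 in all types. Other markers of those lists were read, such as *Olig1* (203458 reads) and *Acta2* (539975), each in 22 cells, and *Kdr* (4486 reads in 13 cells). The summed oligodendrocyte lineage markers reached 3329 CPM in T-type cells. Mural and fibroblast markers reached 7411 CPM in S-type cells, and endothelial markers 200 CPM in T-type cells. The part of these genes in the values below was not tested either.

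The release genes were read in nearly every astrocyte. A read was present in 214 of 220 pairs of gene and cell, 97.3%, against 79.1% over all 12719 genes. *Vamp3*, *Vamp4*, *Snap29*, *Scamp2*, *Scamp3* and *Scamp5* had reads in all 22 cells. The 6 empty pairs lay in 4 cells. *Vamp2* had no read in the T-type cell J163_18 and the M-type cell J172_23, *Vamp7* none in the T-type cell J165_23, *Snap23* none in J165_23 and the NR cell J186_5, and *Scamp1* none in J163_18. In J163_18, the smallest library, a count of 0 allows up to 1.02 CPM, and in the other 3 cells up to 0.145 to 0.159 CPM. Such limits, like all intervals given here, cover counting error only.

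Levels of different genes were compared per kilobase of annotated exon. Whether counts in these amplified libraries scale with exon length was not tested. Without that division, the median cell had 1827 normalized counts of *Scamp1* and 1673 of *Vamp3*, so the first place below depends on it. By the median cell, *Vamp3* came first at 579 normalized counts per kilobase, ahead of *Scamp1* at 399, *Vamp7* at 241, *Snap29* at 154.4, *Snap23* at 114, *Scamp2* at 109, *Vamp4* at 85.3, *Scamp5* at 36.9, *Scamp3* at 27.6 and *Vamp2* at 4.22. Few neighbours in this order were set apart within cells. *Vamp3* exceeded *Scamp1* in 15 of 22 cells, *Vamp7* exceeded *Snap29* in 12, *Scamp2* exceeded *Vamp4* in 11, and *Snap23* exceeded *Scamp2* in only 9. The last step was the clear one, since *Scamp3* exceeded *Vamp2* in 22 of 22 cells. *Vamp3* had the highest level per kilobase of the 10 genes in 12 cells, *Scamp1* in 6, *Snap29* in 2, and *Vamp7* and *Snap23* in 1 each.

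**Figure D1:**
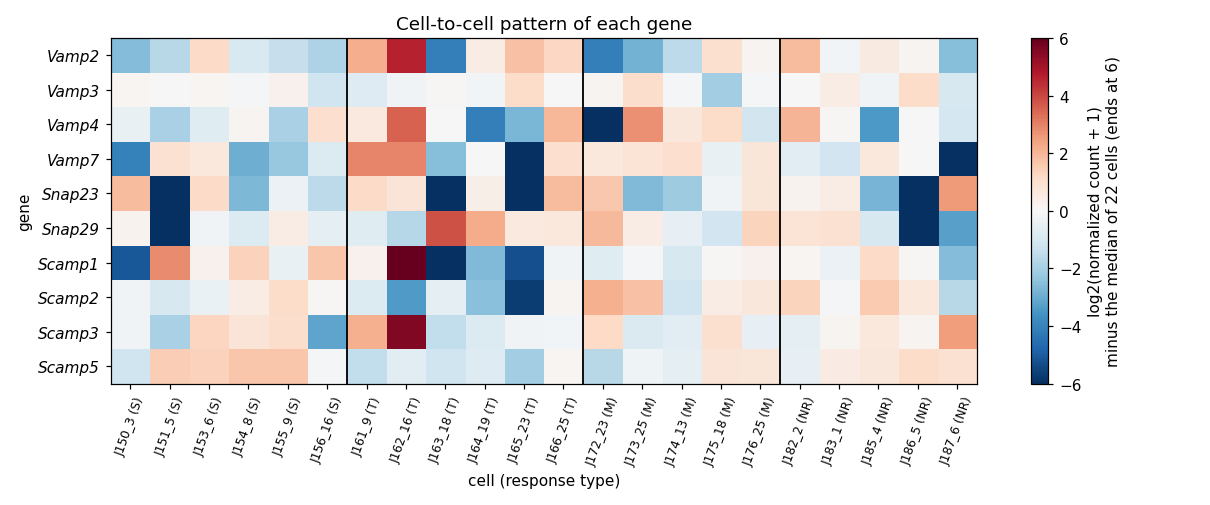
Each row is a gene and each column a cell, ordered by response type (S, T, M, NR). Colour gives log2(normalized count + 1) minus the median of the gene over the 22 cells, so *Vamp3* stays pale across all columns, while *Scamp1* is deep red in the T-type cell J162_16 and *Snap23* deep blue in the S-type cell J151_5, the T-type cells J163_18 and J165_23 and the NR cell J186_5.

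*Vamp3* (chromosome 4, 151047300 to 151057963, minus strand, GRCm38) was the steadiest of the group. Its S-type cells ran from 721 to 2032 normalized counts with a median of 1756, and its T-type cells from 963 to 3553 with a median of 1596. The M-type cells held 391 in J175_18, 1537 in J176_25, 1541 in J174_13, 1856 in J172_23 and 3445 in J173_25, and the NR cells 848 in J187_6, 1450.5 in J185_4, 1655 in J182_2, 2286 in J183_1 and 3612 in J186_5. The 4 types overlapped over most of their range. The levels of the types were 1822 ± 894 in T-type (SD, n = 6 cells), 1971 ± 1052 in NR (n = 5), 1619 ± 462 in S-type (n = 6) and 1754 ± 1098 in M-type cells (n = 5), and the largest of the 4 contrasts in size was S-type versus NR, with a log2 ratio of -0.28. The highest cell stood 9.24-fold above the lowest. On the scale of log2(normalized count + 1), the SD over the 22 cells was 0.73, and only 1.96% of the 3670 genes read in every cell had a smaller one, against a median of 1.73 over those genes. The *Vamp3* gene overlaps the annotated span of *Camta1* on the same strand, and reads of a shared exon could not be told apart.

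*Vamp2* (chromosome 11, 69088490 to 69092384, plus strand) was read at a low level in the same cells. The S-type cells together had 87 *Vamp2* reads (95% Poisson interval 69.7 to 107), the T-type cells 330 (295 to 368), the M-type cells 116 (95.9 to 139) and the NR cells 193 (167 to 222). Within each of the 22 cells it lay below *Vamp3* per kilobase, and in the 20 cells with a *Vamp2* read *Vamp3* was 4.54-fold to 3243-fold higher, with a median of 162.1-fold. *Vamp2* did differ in level between types. The S-type cells ran from 1.78 to 36.5 normalized counts with a median of 4.91, and the T-type cells from 0 in J163_18 to 421 in J162_16 with a median of 48.0. M-type cells held 0 in J172_23, 1.40 in J173_25, 4.69 in J174_13, 18.1 in J176_25 and 32.2 in J175_18, and NR cells 1.85 in J187_6, 14.2 in J183_1, 17.9 in J186_5, 23.7 in J185_4 and 62.5 in J182_2. T-type cells were thus the highest as a group, 4 of 6 lay above every S-type cell, and the groups overlapped through J163_18 and J164_19. The log2 ratio of levels was 3.36 for T-type versus S-type (95% interval of the read split 3.01 to 3.72) and against NR cells 2.09 (1.83 to 2.35). Without J162_16 these ratios were 1.95 and 0.68. *Vamp2* was also lower in S-type than in NR cells, with a log2 ratio of -1.27 (-1.65 to -0.90), and in M-type than in NR cells, with -1.09 (-1.44 to -0.75). Both of the latter, as ratios of means, fell within 2-fold without the NR cell J182_2, to -0.53 and -0.36. With medians over cells they were -1.68 and -1.74.

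**Figure D2:**
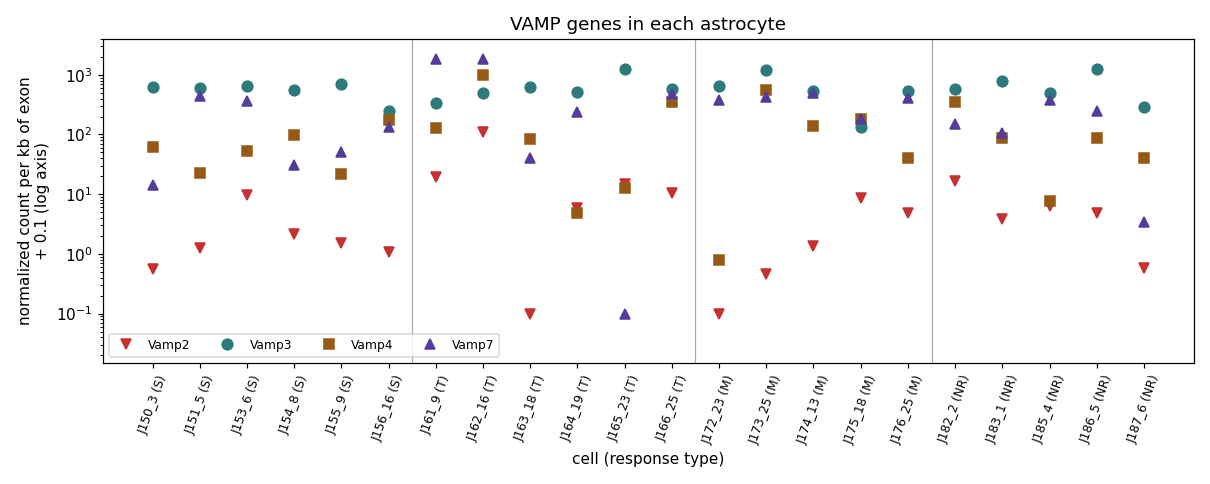
Points give the normalized count per kilobase of exon of the VAMP genes in each of the 22 cells, on a log axis with a small constant added as the axis states, and vertical lines separate the response types. The circles of *Vamp3* lie in a narrow band, and the red triangles of *Vamp2* lie below them in 22 of 22 cells.

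*Vamp7* lies on an unplaced scaffold of the GRCm38 assembly, at 10738 to 39148 on the minus strand, and its annotation overlaps that of a gene on the other strand. An annotated pseudogene of *Vamp7* also exists, so its uniquely aligned reads may be incomplete. *Vamp7* had its highest mean level in T-type cells and its most even one in M-type cells. By the median, M-type cells were higher, at 1021 against 910.5 in T-type cells. The S-type cells ran from 36.4 to 1136 normalized counts with a median of 236, and the T-type cells from 0 in J165_23 to 4697 in J161_9 with a median of 910.5. M-type cells held 454 in J175_18, 954 in J172_23, 1021 in J176_25, 1092 in J173_25 and 1246 in J174_13, whereas NR cells held 8.34 in J187_6, 272 in J183_1, 380.0 in J182_2, 626 in J186_5 and 949 in J185_4. Of the 5 M-type cells, 4 lay above every NR cell, and the M-type cell was the higher one in 23 of 25 pairs of cells. The log2 ratio for M-type versus NR was 1.09 (1.04 to 1.15), and it was 0.78 without the NR cell J187_6 and 1.57 without the NR cell J185_4. In T-type cells the spread was wider, with J161_9 and J162_16 far above the rest and J165_23 empty. The log2 ratio was 2.09 for T-type versus S-type (2.03 to 2.15) and against NR cells 2.08 (2.02 to 2.14), with ranges of 1.58 to 2.63 and 1.57 to 2.55 when each cell was left out. Without J162_16 they were 1.58 and 1.57, and without both J162_16 and J163_18 they were 1.88 and 1.87. With mean CPM they were 1.13 and 0.99, the latter within 2-fold. The mean of log2 values brought these ratios to 0.60 and 0.62, where the median of all genes was at -1.09 and -0.93.

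*Vamp4* (chromosome 1, 162570515 to 162599084, plus strand) varied from cell to cell within every type. Its S-type cells ran from 100.4 to 788 normalized counts, T-type cells from 21.9 in J164_19 to 4468 in J162_16, M-type cells from 3.13 in J172_23 to 2579.6 in J173_25, and NR cells from 35.2 in J185_4 to 1579 in J182_2. A single cell held 62.9% of the summed T-type level, 61.0% of the M-type and 60.8% of the NR level. The log2 ratio was 1.86 for T-type versus S-type (1.79 to 1.93) and against NR cells 1.19 (1.13 to 1.25). Without J162_16 these ratios came to 0.69 and 0.02, both within 2-fold.

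*Snap23* and *Snap29*, which supply the target-membrane helices of the fusion bundle, were nearly or wholly unread in a few cells. *Snap23* (chromosome 2, 120567671 to 120601255, plus strand) had 1 read in the S-type cell J151_5 and 1 in the T-type cell J163_18, and none in the T-type cell J165_23 and the NR cell J186_5. Its other 18 cells ran from 69.0 to 2868 normalized counts. The low cells therefore lay in 3 of the 4 types. Its SD over cells of log2(normalized count + 1), 3.55, was above that of 99.3% of the genes read in every cell. The levels of the types were 719 ± 687 in T-type (SD, n = 6 cells), 835 ± 1174 in NR (n = 5), 583 ± 719 in S-type (n = 6) and 575 ± 582 in M-type cells (n = 5). None of the 4 contrasts reached 2-fold, with log2 ratios against NR cells of -0.21 for T-type, -0.52 for S-type and -0.54 for M-type cells and a T-type versus S-type ratio of 0.30, each of which changed sign when 1 cell was left out.

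*Snap29* (chromosome 16, 17405986 to 17430827, plus strand, overlapping *Pi4ka* on the other strand) was higher in T-type cells. The S-type cells ran from 6.50 in J151_5 to 720.1 in J155_9 with a median of 402 normalized counts, and the T-type cells from 159.6 in J162_16 to 7336 in J163_18 with a median of 803. M-type cells held 240.2 in J175_18, 372 in J174_13, 712 in J173_25, 1308 in J176_25 and 2003 in J172_23, and NR cells 5.98 in J186_5, 54.7 in J187_6, 269 in J185_4, 942 in J182_2 and 980.1 in J183_1. Here 4 of 6 T-type cells lay above every S-type cell, and the other two within the S-type range. The log2 ratio was 2.29 for T-type versus S-type (2.22 to 2.35) and against NR cells 2.14 (2.08 to 2.20). The smallest library, J163_18, held 61.6% of the T-type level, and its removal gave ratios of 1.17 and 1.02, while removal of J162_16 too gave 1.44 and 1.29. The ratio against NR cells fell within 2-fold, to 0.81, with CPM of the pooled reads, and that against S-type cells, 0.998 with medians over cells, was at the 2-fold limit. For M-type versus NR the log2 ratio was 1.04 (0.99 to 1.10) and 0.55 without the M-type cell J172_23. *Snap29* and *Snap23* were both near 0 in J151_5 and J186_5, but J163_18, with 1 *Snap23* read, had the highest *Snap29* level of all cells. Per kilobase, *Snap29* exceeded *Snap23* in 15 of 22 cells.

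*Scamp1* (chromosome 13, 94201310 to 94285857, minus strand) had 211479 reads over the 22 cells, the most of the 10 genes, and 1 astrocyte held most of them. The T-type cell J162_16 had 146470 *Scamp1* reads, which was 1.17% of all its reads (exact binomial interval 1.16% to 1.17%) and made *Scamp1* the gene ranked 5 by reads in that cell. In no other cell did *Scamp1* exceed 0.0853% of the reads. Among T-type cells it ran from 0 in J163_18 through 46.7 in J165_23, 290.0 in J164_19, 1576 in J166_25 and 2197 in J161_9 to 531190.0 normalized counts in J162_16. The S-type cells ran from 52.4 in J150_3 to 13176 in J151_5 with a median of 3485, the M-type cells from 926 to 2185, and the NR cells from 296 in J187_6 to 4055 in J185_4. Even with J162_16 counted, the T-type cell was the lower one in 24 of 36 pairs with S-type and 19 of 30 pairs with NR cells. The log2 ratio of 4.29 for T-type versus S-type thus turned to -2.47 without J162_16, and that of 5.53 for T-type versus NR turned to -1.23. *Scamp1* was 2.35-fold higher in S-type than in NR cells, a log2 ratio of 1.24 (1.21 to 1.26), which was 0.55 without the S-type cell J151_5. M-type and NR levels, 1582 ± 540.3 (SD, n = 5 cells) and 1934 ± 1364 (n = 5), differed by less than the spread between cells.

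*Scamp3* (chromosome 3, 89177473 to 89182765, plus strand, overlapping the antisense gene *Gm16069*) showed the same dependence on J162_16. That cell held 819 of the 1209 T-type reads and 87.0% of the T-type level, 2970.2 normalized counts, while the other T-type cells ran from 21.8 to 279, the S-type cells from 5.94 to 154.1, the M-type cells from 33.6 to 143 and the NR cells from 42.5 to 359. The groups overlapped in all contrasts. The log2 ratio of 2.87 for T-type versus S-type came to 0.19 without J162_16, and that of 2.16 for T-type versus NR came to -0.52.

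*Scamp5* and *Scamp2* were lower in T-type cells, and no single cell carried that difference. *Scamp5* (chromosome 9, 57441327 to 57468060, minus strand) ran in S-type cells from 59.5 in J150_3 to 436 in J154_8 with a median of 374 normalized counts, and in T-type cells from 31.8 in J165_23 to 146 in J166_25 with a median of 70.1. M-type cells held 42.5 in J172_23, 95.2 in J174_13, 116 in J173_25, 229 in J176_25 and 231 in J175_18, and NR cells 95.9 in J182_2, 190.0 in J183_1, 219 in J185_4, 257 in J187_6 and 292 in J186_5. Of the 6 T-type cells, 5 lay below every NR cell and only J166_25 reached into their range, so the T-type cell was the lower one in 29 of 30 pairs of T-type and NR cells and in 31 of 36 pairs of T-type and S-type cells. Levels were 75.5 ± 40.1 in T-type (SD, n = 6 cells), 211 ± 74.8 in NR (n = 5), 301 ± 164.5 in S-type (n = 6) and 143 ± 84.1 in M-type cells (n = 5). *Scamp5* was 3.99-fold lower in T-type than in S-type cells, a log2 ratio of -1.99 (-2.15 to -1.84), and 2.79-fold lower than in NR cells, with -1.48 (-1.64 to -1.32). Leaving out each cell gave -2.29 to -1.84 and -1.78 to -1.32, and leaving out J162_16 and J163_18 together gave -1.98 and -1.46. The T-type reads numbered 390 (352 to 431) against 2242 in S-type (2150.2 to 2337) and 1562 in NR cells (1485 to 1641). After *Vamp3*, *Scamp5* had the smallest spread over cells of the 10 genes, 1.14 on the log2 scale.

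*Scamp2* is a neighbour of *Scamp5* on chromosome 9, at 57560943 to 57588795 on the plus strand. Its T-type cells ran from 5.83 in J165_23 to 398 in J166_25 with a median of 132 normalized counts, and its S-type cells from 183.2 in J151_5 to 755 in J155_9 with a median of 339.7. M-type cells held 152.8 in J174_13, 481 in J175_18, 568.1 in J176_25, 1187 in J173_25 and 1548 in J172_23, and NR cells 111 in J187_6, 338 in J183_1, 549.6 in J186_5, 891 in J182_2 and 1038 in J185_4. The T-type cells lay lowest but overlapped both groups, and 3 of 6 lay below every S-type cell. The log2 ratio was -1.32 for T-type versus S-type (-1.43 to -1.21) and against NR cells -1.89, and leaving out each cell gave -1.85 to -1.03 and -2.42 to -1.58, and J162_16 and J163_18 together -1.24 and -1.81. The T-type cell was the lower one in 30 of 36 pairs with S-type and 26 of 30 pairs with NR cells. T-type cells also had fewer genes read than most other cells, 6319 to 10614, and the part of this in the lower *Scamp5* and *Scamp2* levels was not tested. When every cell was thinned to the size of the smallest library, both genes were at least 2-fold lower in T-type cells in both contrasts. Thinning evens out the read totals and not the genes read, so it does not bear on that question. The T-type cell J162_16, for example, had 12564138 reads but only 6319 genes with a read.

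**Figure D3:**
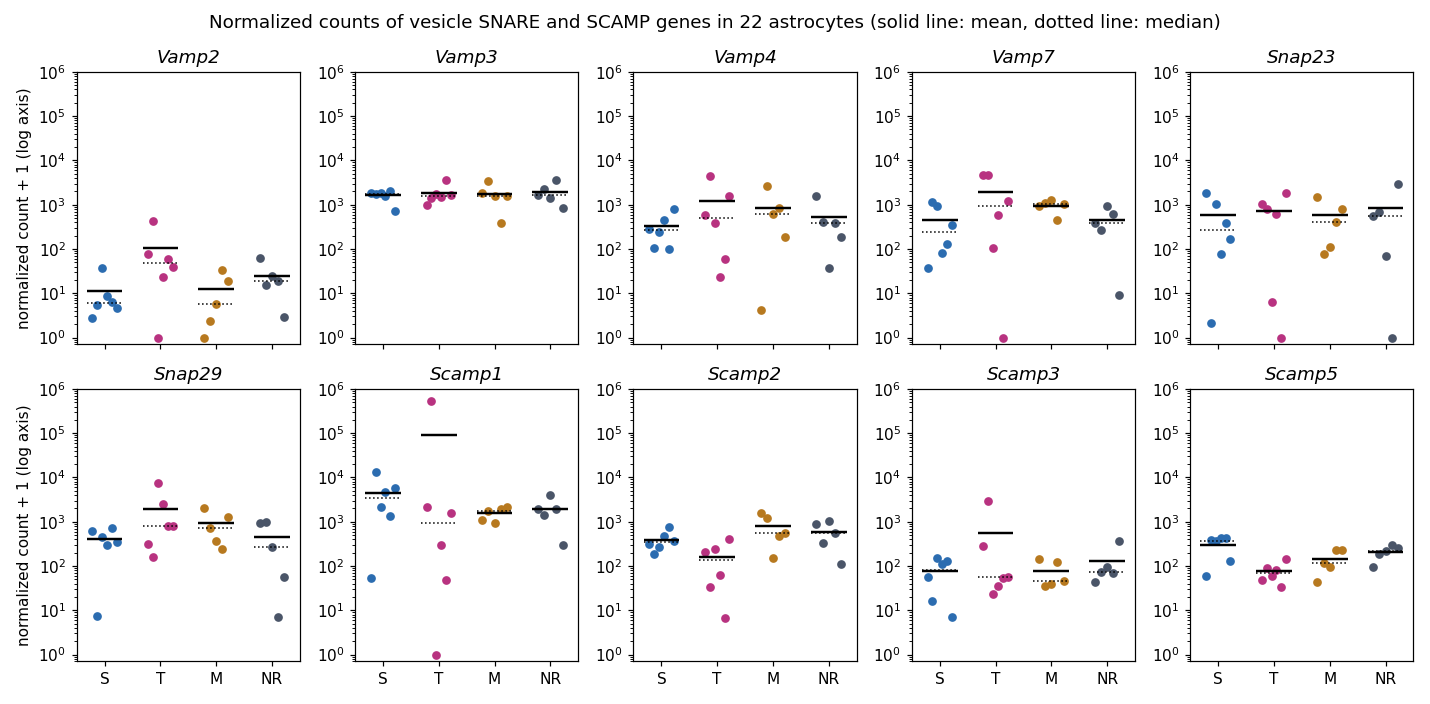
Each panel shows a gene, with 1 point per cell, the response types S, T, M and NR along the horizontal axis and normalized count + 1 on a log axis. Solid lines mark the mean and dotted lines the median of a type, and the means of *Scamp1* and *Scamp3* in T-type cells stand far above their medians of 933 and 54.4.

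Across the 10 genes, the 2 contrasts with T-type astrocytes held the most differences of 2-fold or more, and J162_16 set many of them. For T-type versus S-type, 6 genes were at least 2-fold higher (*Vamp2*, *Vamp4*, *Vamp7*, *Snap29*, *Scamp1*, *Scamp3*) and 2 lower (*Scamp2*, *Scamp5*), where 26% of all genes tested were at least 2-fold higher and 32.2% lower. The same 6 and 2 genes were past 2-fold for T-type versus NR, against 28.6% and 32.4% of all genes. Both contrasts use the same T-type cells. The median log2 ratio of the 10 genes was 1.98 for T-type versus S-type and 1.63 against NR cells, and over all genes it was -0.07 and -0.05. Without J162_16 the medians came to 0.25 and -0.15, and the counts to 3 higher and 3 lower against S-type and 2 higher and 3 lower against NR cells. With mean CPM in place of size factors, the counts were 5 higher and 2 lower against S-type and 2 higher and 2 lower against NR cells. The median log2 ratio of all genes was then -0.44 and -0.45. The shares of all genes past 2-fold were not computed without J162_16 or with mean CPM, nor was their median without J162_16. These counts therefore have no background beside them. By the median cell instead of the mean, T-type was the highest type for 3 of the 10 genes rather than 6. The share of all genes highest in T-type was not computed, so neither count is a result about these genes.

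Responding cells of the other types differed less from NR cells. For S-type versus NR, *Scamp1* was at least 2-fold higher and *Vamp2* lower, against 25.1% and 22.4% of all genes, and the median log2 ratio of the 10 genes was -0.40 against 0.03. For M-type versus NR, *Vamp7* and *Snap29* were at least 2-fold higher and *Vamp2* lower, against 19.8% and 28.1%, and the median was -0.23 against -0.20. These shares were near or below those of all genes. In none of the 4 contrasts did all cells of one type lie above or below all cells of the other for any of the 10 genes. Over all genes tested, all cells of the first type lay higher for 0.126% and lower for 0.645% in T-type versus S-type, and against NR cells the shares were 0.189% and 0.802% for T-type, 0.204% and 0.204% for S-type, and 0.275% and 0.322% for M-type cells.

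**Figure D4:**
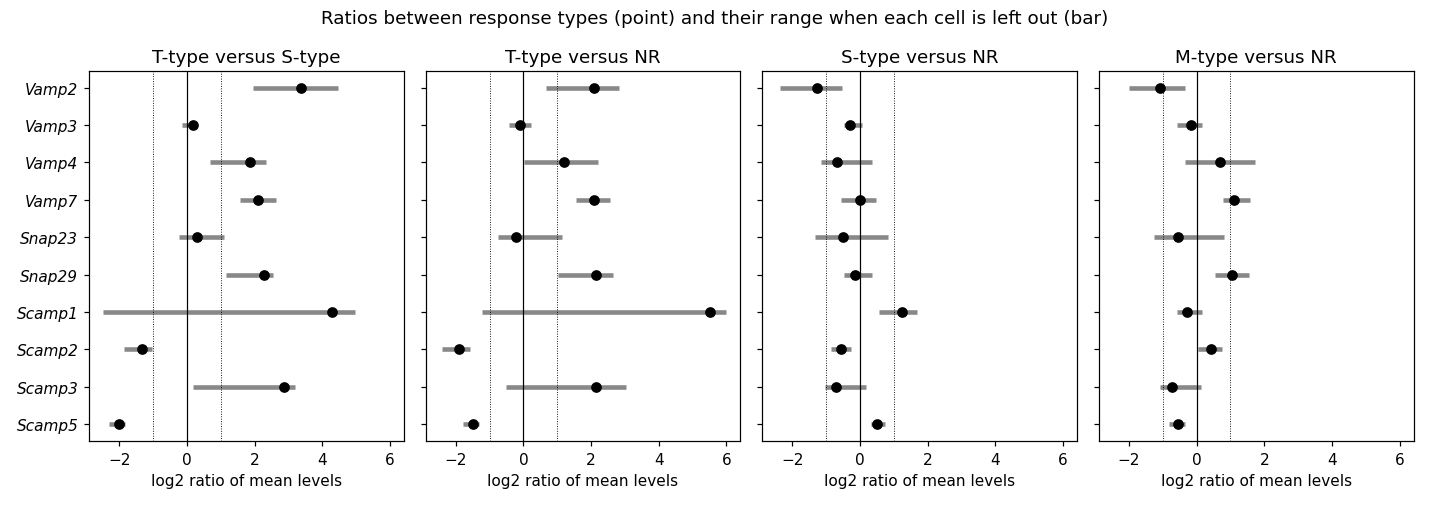
Points give the log2 ratio of the mean levels of 2 response types for each gene, grey bars the range of that ratio when each cell in turn is left out, and dotted lines a 2-fold difference. The bar of *Scamp1* runs from -2.47 to 4.98 in T-type versus S-type, while those of *Scamp5* and *Scamp2* stay below 0 in both T-type contrasts.

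A single cell often held the majority of the level of a type. This was so for 5 of the 10 genes in T-type, 4 in NR, 2 in S-type and 3 in M-type cells, against 71.6%, 57.5%, 44.9% and 50.3% of all genes tested, many of which had few reads. The genes showed little common pattern. Among the 45 pairs of these genes, the highest Pearson correlation of log2(normalized count + 1) over the 22 cells was 0.59 for *Vamp7* and *Scamp1*, only 1 other pair exceeded 0.5 (*Vamp2* and *Scamp1*, 0.52), and the lowest was -0.50 for *Snap29* and *Scamp5*. Without the smallest library, J163_18, these came to 0.67, 0.39 and -0.46, and *Snap23* with *Snap29* went from 0.36 to 0.55. These cells share their depth differences, so the correlations are descriptions only.

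The rest of the release machinery was measured as well, with 70 genes from 8 lists in the table and 62 past the filter. Among these 62, 11 were at least 2-fold higher and 16 lower in T-type than in S-type cells, with a median log2 ratio of 0.021. Over all genes tested, 26% were higher and 32.2% lower in that contrast. Against NR cells the counts of the 62 were 13 and 17 for T-type, 10 and 15 for S-type, and 8 and 14 for M-type cells, with medians of -0.25, -0.13 and -0.31. The shares of all genes there were 28.6% and 32.4% for T-type, 25.1% and 22.4% for S-type, and 19.8% and 28.1% for M-type cells. By list, the counts for T-type versus NR, higher and lower, were 1 and 2 of 6 other VAMP, SNAP and SCAMP genes, 1 and 0 of 4 plasma membrane syntaxins, and 4 and 0 of 18 endosomal and Golgi SNAREs. They were 1 and 6 of 9 SM proteins, 1 and 1 of 4 SNARE disassembly genes, 2 and 3 of 8 calcium sensors and complexins, 3 and 4 of 11 priming and tethering genes, and 0 and 1 of 2 vesicular transporters. The share of all genes at least 2-fold lower in this contrast was 32.4%. The 9 SM proteins, syntaxin-binding partners of the SNAREs, had 1 higher and 3 lower genes in T-type versus S-type. In S-type versus NR they had 3 higher and 5 lower genes. The shares of all genes, higher and lower, were 26% and 32.2% in the former contrast and 25.1% and 22.4% in the latter.

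Each of the other lists held at least 1 gene read in nearly every astrocyte. The most read gene of each list was *Syt11*, a synaptotagmin that does not bind calcium (386612 reads), *Stx12*, a recycling endosome syntaxin (118674), *Exoc5* of the exocyst tether (80619), *Snap47* (35573), the SM protein *Scfd1* (31167), *Nsf*, the ATPase that takes SNARE bundles apart (21880), *Stx4a*, a plasma membrane syntaxin (12860), and the sialic acid transporter *Slc17a5* (10001). All had reads in 22 cells except *Slc17a5*, with 21. In T-type versus S-type cells *Stx12* and *Slc17a5* were at least 2-fold lower, with log2 ratios of -1.53 and -1.30, and the other 6 lay within 2-fold. *Stx12* came to -0.26 without the S-type cell J150_3. *Slc17a5* came to -0.84 without the S-type cell J155_9 and to -3.44 without the T-type cell J164_19, which held 81.1% of its T-type level.

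In these lists and the 4 contrasts, the cells of both types did not overlap for 2 exocyst genes, 1 of the 62 genes in T-type versus NR and 1 of 62 in M-type versus NR. Over all genes tested, 0.802% and 0.322% lay lower in all cells of the first type in those contrasts, so these counts were near the background. *Exoc1* ran from 0 to 54.7 normalized counts in T-type cells with a median of 26.4, and in NR cells it held its lowest value, 202, in J183_1, with a median of 1370.2 and a highest value of 2337. All 6 T-type cells thus lay below all 5 NR cells. The log2 ratio was -5.48 (-5.75 to -5.22), with -5.81 to -5.09 when each cell was left out. Against S-type cells it was -5.07, with overlap through the S-type cell J150_3, which had no read. *Exoc8* ran from 217 to 417 in M-type cells and from 469 to 2819 in NR cells, a log2 ratio of -2.12 (-2.18 to -2.07).

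The following genes of the lists were named after their values were seen and are single values, not a group. *Snap25*, the neuronal counterpart of *Snap23*, had 466 reads, of which 454 came from the NR cell J183_1. *Syt1*, the calcium sensor of synaptic vesicles, had 321 reads, 260 of them in J162_16, the cell with the extreme *Scamp1* level. *Stx1a*, the neuronal plasma membrane syntaxin, had 25 reads in 7 cells. The synaptotagmins *Syt4* and *Syt7* had 3339 and 824 reads, each in 8 cells. Among vesicular glutamate transporters, *Slc17a7* had no read in 354918409, which allows up to 0.00845 CPM, *Slc17a6* had 12 reads in 1 cell and *Slc17a8* had 80 reads in 4 cells. The nucleotide transporter *Slc17a9* had 3 reads in 1 cell, and the monoamine transporter *Slc18a2* had 102 reads in 15 cells. *Vamp5* and *Vamp8*, a pair of non-neuronal VAMP genes outside the 10, had 31881 reads in 22 cells and 11340 reads in 21 cells.

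For each of the 10 genes the most alike gene outside the lists was sought among 10493 genes, by Pearson correlation of log2(normalized count + 1) over the 22 cells. The highest values were 0.86 for *Snap23* with *Zgpat*, 0.85 for *Scamp1* with *Zfp277*, 0.82 for *Scamp2* with *AU040320*, 0.81 for *Vamp7* with *Osbpl2*, 0.80 for *Vamp2* with *Ywhab* and 0.80 for *Snap29* with *Sc4mol*. The remaining ones were 0.78 for *Scamp3* with *Atp5a1*, 0.77 for *Scamp5* with *Pskh1*, 0.75 for *Vamp4* with *Hepacam* and 0.73 for *Vamp3* with *S100a4*. Each is the largest of many values over the same libraries and is given without a p.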

How the data were processed

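Single astrocytes were amplified as antisense RNA in 2 rounds by the authors, made into TruSeq stranded libraries and sequenced as paired reads. Reads were trimmed, aligned to GRCm38 with STAR and counted over exons with VERSE per the study's methods (HTSeq per the labels). Versions and the use of strand are not given in the sources used here. The authors deposited raw read counts per gene, with no normalization. Without molecular identifiers, amplified copies of the same RNA were counted separately. Totals per cell were 2937786 to 22131076.

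From these counts, size factors were computed as medians of ratios over the 3670 genes read in every cell (Python 3.11.15, NumPy 2.4.6, pandas 2.3.3), and genes were kept if at least 5 cells had a read. A type's level was the mean normalized count of its cells, with 3 reads over the type standing in for a level of 0. Since no animal or culture is named for a cell, no test was run. Intervals at 95% were exact (SciPy 1.17.1) and cover counting error only. A difference of 2-fold or more was counted beside the same share over all genes. Gene positions, overlaps and exon lengths came from GENCODE vM21. Figures were drawn with matplotlib 3.10.9. The ratio step was checked on simulated data.

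The genes and lists were chosen with earlier results of these data known. Named were all 10 genes, the most read gene of each other list, list genes past 2-fold whose cells did not overlap, and the most alike gene of each of the 10 (mean level at least 10, read in at least 11 cells). Alternatives were TMM factors (edgeR 4.0.16, R 4.3.3), mean CPM, CPM of pooled reads, thinning to the smallest library, medians over cells, means of log2 values, a pseudocount of 1, the filter on low counts, at least 5 reads for detection, the longest transcript as length, and cells left out. The removal of J162_16 and J163_18 together was chosen after seeing the data.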

Additional observations from a re-analysis of the deposited data

Results flagged for a closer look

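Dixon's ratio was sought within each response type in 48 groups, and 7 groups held a cell far from the others. The groups were the 10 genes and their summed level, on log2 values, and the number of these genes with a read, as a plain count. That number was 10 in each S-type cell, so this group had no ratio. Chance flags about 5% of such groups. The S-type cell J156_16 had the lowest *Vamp3* level, 721 normalized counts, where the other S-type cells began at 1608. For *Vamp7*, the M-type cell J175_18 lay lowest at 454 and the NR cell J187_6 at 8.34, the latter with 9 reads. For *Snap29*, the S-type cell J151_5 lay lowest at 6.50, where the next was 297. The M-type cell J172_23, without *Vamp2*, and the NR cell J186_5, without *Snap23*, were each the only cell of their type to read 9 rather than 10 of the genes. With all other counts tied, the ratio is at its maximum by construction, so the chance rate does not apply to these 2 groups. The T-type cell J162_16 had a summed level of 546276 normalized counts over the 10 genes, of which *Scamp1* gave 531190.0.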

How the results depend on the processing

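No paired analysis was possible because the labels give no replicate numbers that pair cells across types and no test was run. Over the T-type versus S-type alternatives, the median log2 ratio of the 10 genes came to 0.38 with medians over cells, 0.32 with means of log2 values and 0.51 without J162_16 and J163_18, and against NR cells to 0.14, 0.093 and 0.017. The count of genes past 2-fold in T-type versus NR, 8, came to 4 with mean CPM and to 5 with pooled CPM, means of log2 values or without both cells. For S-type versus NR, 2 became 1 with means of log2 values and 0 without J150_3 and J151_5, and for M-type versus NR, 3 became 1 with mean or pooled CPM and 0 with thinned cells. The shares of all genes past 2-fold were not computed under these alternatives or with a cell left out. Leaving out each cell gave counts of 6 to 9, 5 to 8, 1 to 3 and 1 to 4 and medians of 0.25 to 2.23, -0.15 to 1.98, -0.53 to -0.20 and -0.33 to 0.15 for T-type versus S-type and then for T-type, S-type and M-type cells against NR. *Scamp1* reversed in T-type versus S-type with medians (-1.90), means of log2 values (-1.85), without both T-type cells (-2.15) and without J162_16 alone (-2.47), and against NR cells with -1.04, -1.42, -0.91 and -1.23, while the highest values with a cell left out were 4.98 and 5.99. *Scamp3* reversed with medians against S-type (-0.57) and NR cells (-0.38), and against NR without both cells (-0.27) or without J162_16 (-0.52), with highest values of 3.18 against S-type and 3.03 against NR cells when a cell was left out. In each case the same single cell sets the mean. *Scamp2* and *Scamp5* kept their direction and 2-fold size in T-type cells in all 9 alternatives against S-type and all 8 against NR, but with means of log2 values the median of all genes was itself near 2-fold lower, and their ratios there, -2.14 and -1.83 against S-type and -2.48 and -1.54 against NR cells, stood less far from it. Mean CPM moved the median of all genes from -0.07 to -0.44 in the first T-type contrast, against S-type, and from -0.05 to -0.45 against NR cells, medians over cells moved it to -0.73 and -0.49, and means of log2 values to -1.09 and -0.93. The median of the 10 genes stayed 1.11 and 0.62 above it with medians over cells and 1.41 and 1.02 with means of log2 values. Detection of the 10 genes, 214 pairs of gene and cell, came to 207 at 5 or more reads and 210 with thinned cells. Depth limits *Vamp2* most, which had 726 reads in all.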
